A study of Mus musculus with 8 samples.

Results

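The genes described here code for the machinery of clathrin-mediated endocytosis, read from an RNA-seq count table of mouse first molar enamel organs. The members are 40 gene symbols chosen by name: the clathrin chains, the adaptor complexes AP-1, AP-2 and AP-3, cargo receptors, accessory proteins of the coated pit, proteins of membrane bending, scission and uncoating, and factors of the early endosome and retromer. They matched 41 of the 54532 rows of the table, since Hgs is listed under 2 identifiers. Enamel organs came from untreated wt C57BL/6 pups of 2 ages: P5 is the secretory stage, in which ameloblasts lay down the matrix, and P12 the maturation stage, in which the matrix is removed and mineral is added. Pulp soft tissue was taken out of the molars, the tissue of 5 pups was pooled for each library, polyadenylated RNA was captured, and each age has 4 libraries, with the replicate numbers 1, 3, 4 and 5 for P5 and 1 to 4 for P12. Both ages share the strain and genotype, and no treatment was given at either age.

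In clathrin-mediated endocytosis, an adaptor complex at the membrane binds cargo receptors and recruits clathrin, whose heavy and light chains assemble into a cage around the budding pit. Accessory proteins gather the adaptors and bend the membrane, dynamin cuts the neck of the pit, and a lipid phosphatase helps to strip the coat so that the vesicle can fuse with the early endosome. Ameloblasts are known to take up fragments of the enamel matrix, and endocytosis has long been described in the maturation stage.

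The comparison asks which of these genes differ in transcript level between the secretory and the maturation stage. Most did so by little. Of the 37 members with enough counts to test, 11 rose at P12 (29.7%, against 28.8% of all 16440 genes tested), 12 fell (32.4%, against 28.4% of all genes), and 14 did not pass the test (edgeR, adjusted p under 0.05). The median log2 fold change of the 37 members was -0.086, beside 0.008 for all genes tested. Of the 23 members that passed, 15 had an absolute log2 fold change below 0.5, and only Synj1, Dab2 and Amph reached 1: the 2 rises are 5.4% of the tested members, against 11.3% of all genes, and the single fall is 2.7%, against 10.2%. Every P12 library lay above every P5 library for 10 members (27.0%) and below for 12 (32.4%), where all genes tested gave 26.0% and 26.6%. When counts were scaled by the library total alone, all genes shifted up at P12 by a median of 0.38 on the log2 scale, all 11 rises still passed, and of the 12 falls only Cltb, Ap3m1, Itsn1 and Amph did, while Clta, Ap1m1, Ap2a1 and Sh3gl1 changed sign. Relative to that shift, all 23 members kept their direction. Taking the shift out nearly restores the first log2 fold changes, so this is no separate check of the falls.

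**Figure D1:**
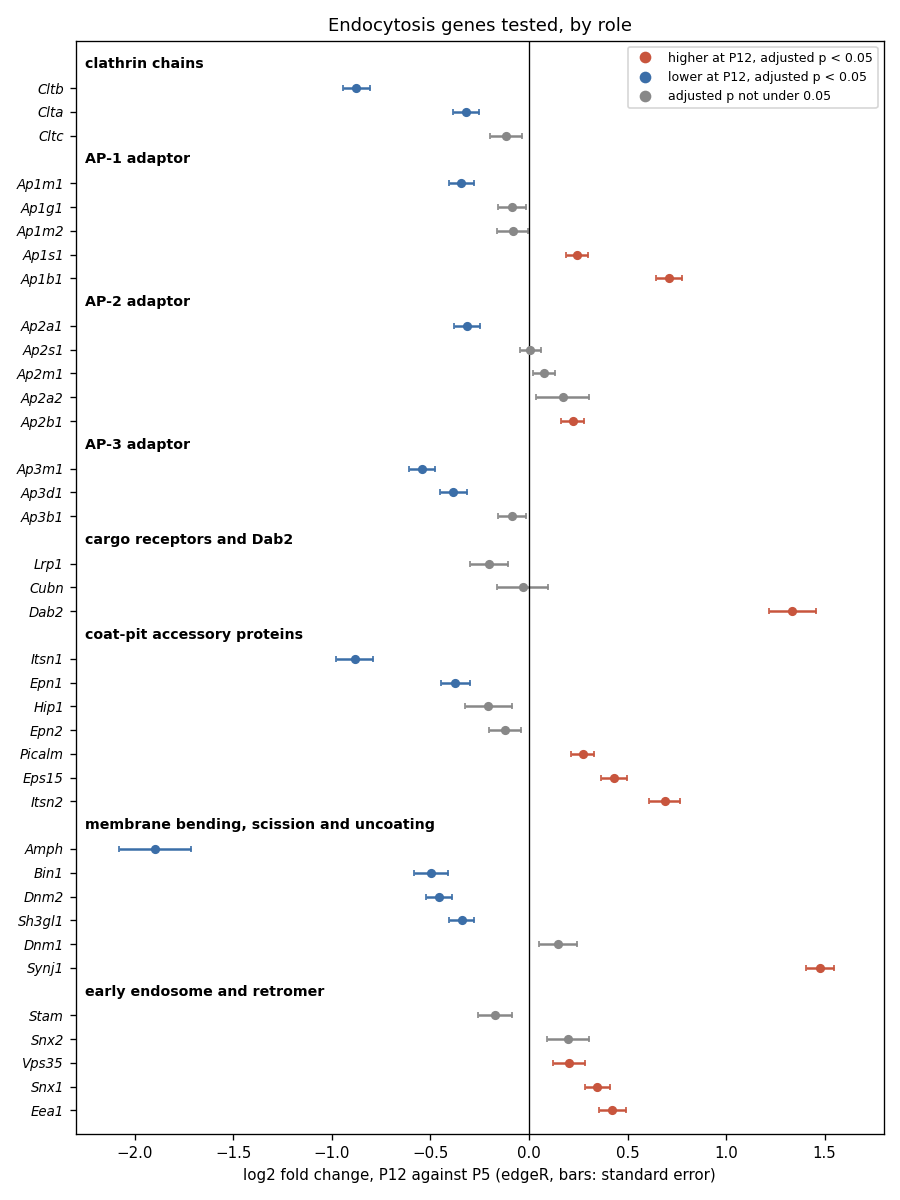
Log2 fold change at P12 against P5 for the 37 tested members, grouped by role, with the standard error as a bar (edgeR, 4 libraries per age). Red points rose, blue points fell and grey points did not pass an adjusted p of 0.05; Synj1 at 1.48, Dab2 at 1.34 and Amph at -1.90 stand apart, and the other 34 members lie between -0.88 and 0.71.

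Libraries held from 16574548 to 20262601 counts at P5 and from 17588152 to 22013456 at P12. The 20 most abundant genes took 34.08% to 35.71% of all counts at P5 and 16.8% to 18.97% at P12, and the values below are normalized counts (TMM, edgeR), which are less moved by such genes than a share of the total. Secretory ameloblast markers (Amelx, Ambn, Enam and Mmp20) were lower at P12 in 4 of 4, and maturation markers (Klk4, Amtn, Odam, Slc24a4 and Wdr72) were higher in 5 of 5, so that each labelled age held the ameloblast transcripts of its stage. Transcripts of other cells were counted too: endothelial markers rose in 5 of 5, osteoclast markers in 4 of 4, and oral mucosa keratins and related genes in 6 of 6. Of the fibroblast, odontoblast and bone markers, Col3a1 rose, from 4414 ± 235 to 54909 ± 25880, Col1a2 and Dmp1 fell, and 3 of 6 did not pass, with a summed normalized count of 1025930 to 1222700 at P5 and 896241 to 1160140 at P12 that is mostly Col1a1, Col1a2 and Dspp. P5 replicate 5 and P12 replicate 4 stood apart, in markers too. Klk4 and Slc24a4 had 703 and 332 normalized counts in P5 replicate 5, against 2586 to 3589 and 1581 to 2269 in the other P5 libraries. Krt13, an oral mucosa keratin, had 510 in P12 replicate 4, against 5840 to 11244 in the other P12 libraries. P12 replicate 4 held the highest P12 value of 19 of 37 members, and P5 replicate 5 the highest P5 value of 17. Leaving both out gave 11 rises and 15 falls among the members, beside 4921 rises and 4855 falls among all genes tested.

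The 3 members below were chosen for their sequence because Synj1 and Dab2 rose the most and Cltb fell the most among the clathrin chains. Each line holds the 250 bases before the annotated start (RefSeq, GRCm38.p6), written 5′ to 3′ on the strand of the gene, for Synj1 at chr16:91011309-91011558 on the minus strand, Dab2 at chr15:6299539-6299788 on the plus strand, and Cltb at chr13:54611374-54611623 on the minus strand. Capitals mark the letters of a GC box (GGGCGG, or CCGCCC on the other strand) or of a cAMP response element (TGACGTCA, the same on both strands).
Synj1: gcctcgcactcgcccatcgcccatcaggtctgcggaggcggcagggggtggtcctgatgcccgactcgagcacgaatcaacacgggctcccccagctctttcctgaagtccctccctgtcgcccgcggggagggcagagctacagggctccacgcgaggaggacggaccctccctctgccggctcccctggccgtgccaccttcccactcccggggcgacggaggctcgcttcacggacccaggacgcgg
Dab2: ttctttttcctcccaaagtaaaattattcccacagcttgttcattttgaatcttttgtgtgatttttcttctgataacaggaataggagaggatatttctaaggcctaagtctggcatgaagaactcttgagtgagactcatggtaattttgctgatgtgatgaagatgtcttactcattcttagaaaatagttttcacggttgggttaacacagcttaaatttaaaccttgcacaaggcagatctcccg
Cltb: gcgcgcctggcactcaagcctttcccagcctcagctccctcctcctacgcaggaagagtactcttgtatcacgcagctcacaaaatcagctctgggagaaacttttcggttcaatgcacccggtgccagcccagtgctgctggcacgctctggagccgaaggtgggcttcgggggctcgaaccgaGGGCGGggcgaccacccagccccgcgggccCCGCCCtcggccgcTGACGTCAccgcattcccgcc

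The stretch before Synj1 was 71.2% G and C and that before Dab2 was 36.8%, and neither held one of the motifs searched. The Synj1 stretch shares 11 bases with an exon of 4930404I05Rik, and both Synj1 and Dab2 have 2 annotated starts, of which the outermost was used. The Cltb stretch was 66.4% G and C, overlaps no annotated exon, and held 2 GC boxes and 1 cAMP response element, none of which overlap. Of the 36 members matched to such a stretch, 22 held a GC box (61.1%, against 33.0% of the 27025 promoters of the same length), 4 an E-box of the letters CACGTG (11.1%, against 6.0%), 2 a cAMP response element (5.6%, against 1.6%; Ap2b1 and Cltb) and 1 a TATA box of the letters TATAAA (2.8%, against 13.0%; Sh3gl1). The 27025 promoters are those of all genes in the RefSeq set, whether counted here or not, while most members were abundantly transcribed. Promoters of genes at like levels were not compared. A match says only that the letters are there.

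Most of the members were abundantly transcribed. On the scale of normalized counts per kilobase of gene length, 31 of the 37 tested members lay above the median gene at P5 and 33 at P12, the median member stood at percentile 82.2 of all genes tested at P5 and 82.4 at P12, and 10 lay in the top 10% at each age. The highest level was that of Clta, a light chain, at 1965 per kilobase at P5 and 1575 at P12, followed by the sorting nexin Snx2 (1267 and 1453) and Ap2s1, the small subunit of AP-2 (1217 and 1222). The deposited length of Snx2, 2013 bases, is shorter than its annotated exons, 2702 bases in GENCODE M21. On the longer length Snx2 would lie below Ap2s1 at both ages. The lowest level among tested members was that of Cubn, the gene of the receptor cubilin, at 9.31 and 9.10 per kilobase, at percentiles 14.1 and 13.4.

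**Figure D2:**
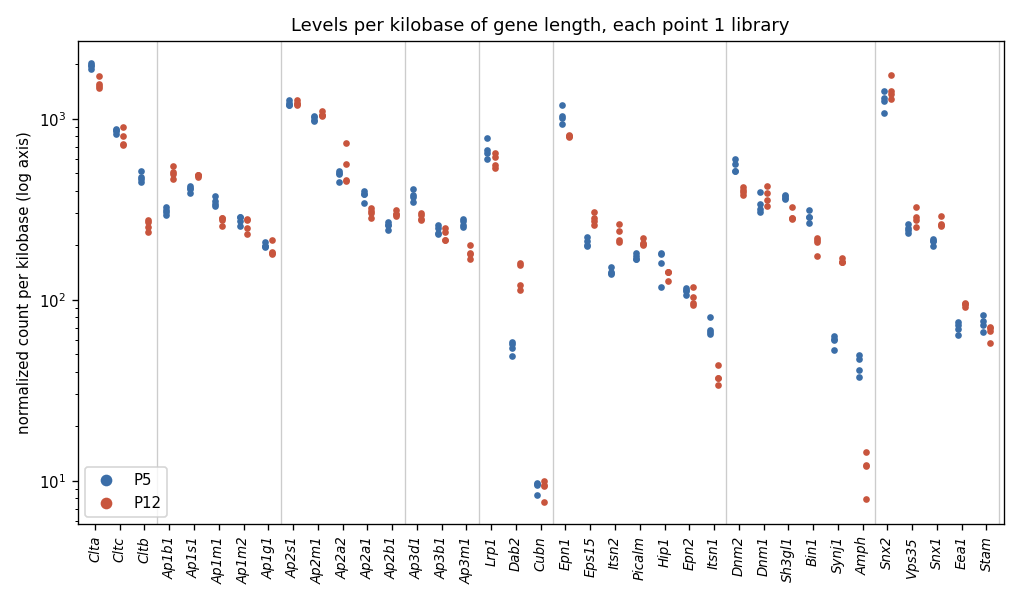
Normalized count per kilobase of gene length (log axis) for the 37 tested members, grouped by role with grey lines between groups, each point 1 library (blue P5, red P12, 4 each). Clta stands highest at both ages and Cubn lowest; the separation of the ages is widest for Dab2, Synj1 and Amph.

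Of the clathrin chains, both light chains fell and the heavy chain did not pass the test. Clta, which codes for light chain A, had normalized counts of 3679, 3504, 3396 and 3568 in the P5 libraries and 2671, 2734, 2815 and 3121 in the P12 libraries. The ages did not overlap, and Clta fell by 0.32 on the log2 scale (SE 0.07, adjusted p = 1.5e-03), although scaling by the library total gave 0.05. Cltb, which codes for light chain B, had 2323, 2257, 2168 and 2495 at P5 and 1305, 1347, 1227 and 1157 at P12. All P12 libraries lay far below all P5 libraries, and Cltb fell by 0.88 (SE 0.07, adjusted p = 1.1e-06), which is 1.84-fold lower. Cltc, the heavy chain, had 7269 ± 204 (SD, n = 4) at P5 and 6707 ± 724 at P12, a log2 fold change of -0.12 (95% interval -0.27 to 0.04, adjusted p = 0.24). Without P12 replicate 4, which had the highest P12 count of Cltc at 7691, the change was -0.19 with an adjusted p of 0.019.

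AP-1 acts at the trans-Golgi network and on endosomes. Among its 5 subunits in the list, Ap1b1 and Ap1s1 rose, Ap1m1 fell, and Ap1g1 and Ap1m2 did not pass. Ap1b1, a large subunit of the beta type, had 1513, 1454, 1608 and 1556 at P5 and 2318, 2527, 2471 and 2716 at P12. It rose by 0.71 on the log2 scale (SE 0.06, adjusted p = 3.5e-06), the largest change of any adaptor subunit in the list. Ap1s1, a small subunit with 409 normalized counts per kilobase at P5 and 485 at P12 (Ap1b1 had 309 and 506), had 935, 854, 902 and 907 at P5 and 1072, 1072, 1043 and 1077 at P12, without overlap (log2 fold change 0.25, adjusted p = 2.9e-03). The mu subunit Ap1m1, which is expressed widely, fell from 1112 ± 59.6 to 876 ± 40.4 (log2 fold change -0.34, adjusted p = 7.6e-04; 0.03 by library total). The epithelial mu subunit Ap1m2 had 863 ± 48.7 and 816 ± 75.5 (log2 fold change -0.08, adjusted p = 0.39). Ap1g1, the gamma subunit, differed by -0.09 on the log2 scale (adjusted p = 0.31), and -0.15 without P12 replicate 4 (adjusted p = 0.029); 18.7% of its exonic bases lie opposite another annotated gene.

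AP-2 is the adaptor of the plasma membrane, and its 5 genes differed little between the ages. The core of the complex was at like counts: Ap2s1 had 1798, 1756, 1747 and 1863 at P5 and 1757, 1766, 1796 and 1875 at P12. These values overlapped fully, with a log2 fold change of 0.01 whose 95% interval ran from -0.10 to 0.11 (adjusted p = 0.93). Ap2m1, the mu subunit that binds cargo, had 4135 ± 138 and 4359 ± 130 (log2 fold change 0.08, 95% interval -0.04 to 0.19, adjusted p = 0.28). Ap2b1 rose by 0.22 (adjusted p = 6.8e-03). The alpha subunits went different ways: Ap2a1 fell from 1625 ± 101 to 1309 ± 71.1 (log2 fold change -0.31, adjusted p = 1.9e-03; 0.06 by library total), while Ap2a2 had 2902, 2845, 2824 and 2525 at P5 and 2576, 2607, 3174 and 4146 at P12. Ap2a2 was widely spread at P12, around the P5 values, and the log2 fold change of 0.17 (SE 0.14) had an adjusted p of 0.30. Of the exonic bases of Ap2a1, 16.7% lie opposite another annotated gene.

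AP-3 sorts cargo from endosomes to lysosomes and related organelles. Its delta subunit Ap3d1 had 3092, 3364, 3276 and 3670 at P5 and 2696, 2488, 2621 and 2471 at P12. No library of one age reached the other, and the gene fell by 0.38 on the log2 scale (adjusted p = 5.1e-04). With scaling by library total Ap3d1 differed by -0.009 and did not pass. Ap3m1 fell further, from 1863 ± 77.4 to 1278 ± 94.4 (log2 fold change -0.54, adjusted p = 3.5e-05). A share of 29.8% of the exonic bases of Ap3m1 lies opposite Vcl, and the use of strand in counting is not given in the sources used here. The beta subunit Ap3b1 differed by -0.09 on the log2 scale (adjusted p = 0.32).

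Among the cargo receptors, Lrp1 was the abundant one, and megalin and its partners were scarcely counted. Lrp1, a large endocytic receptor that takes up many ligands, had 11502, 11984, 10691 and 13855 at P5 and 11458, 9802, 10962 and 9528 at P12. Values of both ages overlapped, and the log2 fold change of -0.20 (SE 0.10) had an adjusted p of 0.094, or 0.0498 without P12 replicate 1. Lrp2, which codes for megalin, had raw counts of 1, 4, 2 and 1 at P5 and 0, 2, 0 and 0 at P12, near the floor of 3 counts, and was not tested. Cubn had 139 ± 9.47 and 136 ± 15.5 (log2 fold change -0.03, 95% interval -0.29 to 0.22, adjusted p = 0.85). Amn, whose product amnionless anchors cubilin at the membrane, had raw counts of 12, 8, 8 and 21 at P5 and 12, 7, 6 and 5 at P12 and did not pass the filter. Fitted without the filter, Amn had a log2 fold change of -1.13 (SE 0.49, adjusted p = 0.081), and DESeq2 gave -1.16 (adjusted p = 0.073). Amn entered the edgeR test when P5 replicate 4 was left out, with -1.27 and an adjusted p of 0.029. It also entered without P12 replicate 3 (-1.09, adjusted p = 0.065) and without P12 replicate 4 (-1.06, adjusted p = 0.055), and did not pass there.

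Dab2, a cargo adaptor that binds megalin and related receptors, rose, while Lrp1 and Cubn did not pass. Normalized counts of Dab2 in the P5 libraries were 428, 418, 398 and 360, and in the P12 libraries 1179, 1144, 884 and 835. The lowest P12 library was above every P5 library, and Dab2 rose 2.52-fold (log2 fold change 1.34, SE 0.12, adjusted p = 3.1e-06). In whole enamel organs, a change in the number of cells that express a gene and a change in RNA per cell cannot be told apart. Markers of macrophages and leukocytes rose in 4 of 6 genes, with a summed normalized count of 1658 to 2335 at P5 and 2383 to 3195 at P12, and those of endothelium rose in 5 of 5, from 2452 to 3064 at P5 and 4832 to 5190 at P12. Of the fibroblast, odontoblast and bone markers only Col3a1 rose, with 86935, 64842, 35470 and 32390 in the P12 libraries, all above P5. Col1a2 and Dmp1 fell, and the other 3 of 6 did not pass. No marker of these lists was at 0 in any library, and their part in the level of Dab2 was not tested.

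**Figure D3:**
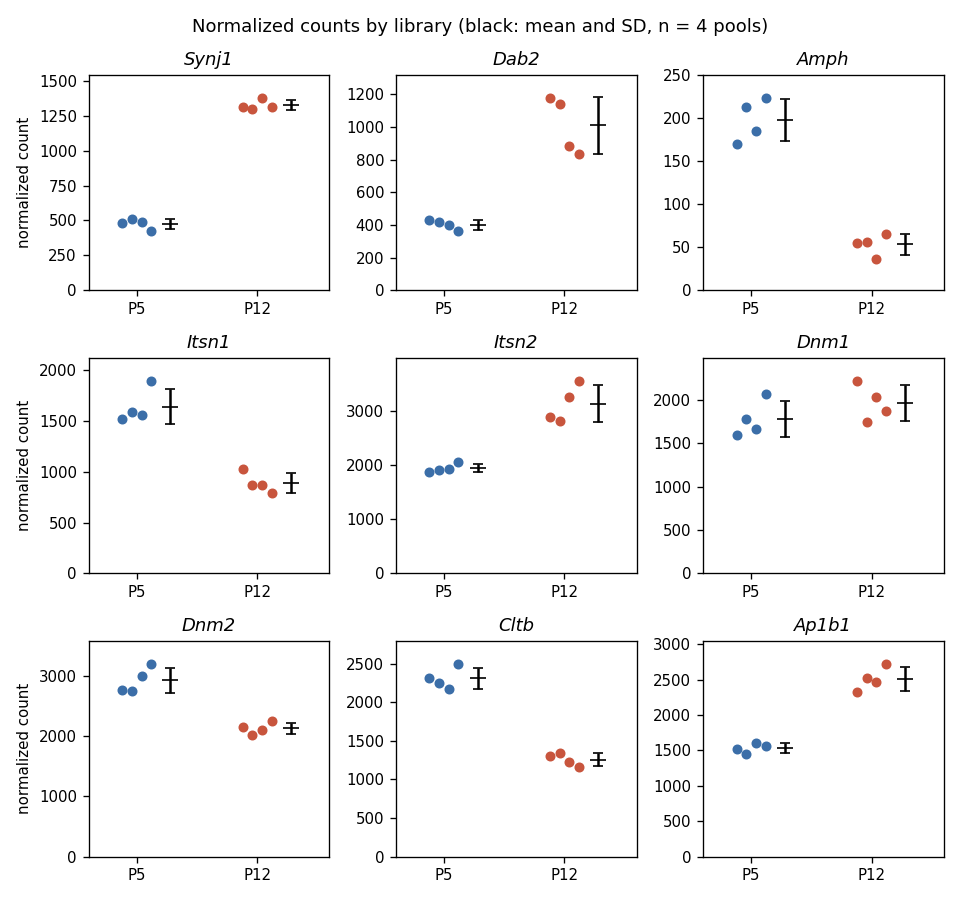
Normalized counts of 9 members in each library (blue P5, red P12), with the mean and SD (n = 4 pools) in black and axes from 0. The ages are separate for each gene but Dnm1, whose P5 libraries lie between 1601 and 2071 and P12 libraries between 1741 and 2219.

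Of the 7 accessory proteins of the coated pit, Eps15, Picalm and Itsn2 rose, Epn1 and Itsn1 fell, and Epn2 and Hip1 did not pass. The intersectins are scaffolds that join coat proteins to dynamin and actin, and the pair moved in opposite directions. Itsn1 had 1522, 1589, 1562 and 1894 at P5 and 1024, 871, 866 and 795 at P12, and fell by 0.88 on the log2 scale (SE 0.09, adjusted p = 1.1e-05). Itsn2 had 1877, 1916, 1939 and 2052 at P5 and 2895, 2820, 3270 and 3558 at P12, and rose by 0.69 (SE 0.08, adjusted p = 2.4e-05). Neither gene had overlapping ages. Of the exonic bases of Itsn2, 13.9% lie opposite another annotated gene, and the use of strand in counting is not known. The epsin Epn1, which binds ubiquitinated cargo and bends the membrane, had 2632, 2904, 2822 and 3354 at P5 and 2258, 2289, 2269 and 2231 at P12. All P12 libraries were close together and below all P5 libraries (log2 fold change -0.37, adjusted p = 1.2e-03; -0.0002 by library total). Eps15, a scaffold of the pit rim, rose from 1440 ± 71.4 to 1940 ± 132 (log2 fold change 0.43, adjusted p = 2.0e-04). Picalm, a clathrin assembly protein, rose from 2709 ± 98.6 to 3271 ± 136 (log2 fold change 0.27, adjusted p = 2.0e-03). Epn2, a second epsin, differed by -0.12 on the log2 scale (adjusted p = 0.23). Hip1, which links the coat to actin, had 2322, 2366, 2067 and 1534 at P5 and 1851, 1638, 1850 and 1846 at P12. P5 replicate 5 was lowest of all, and the log2 fold change was -0.21 (adjusted p = 0.16) in all libraries and -0.33 without that library (adjusted p = 3.3e-03).

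Membrane bending, scission and uncoating held both the largest rise and the largest fall. Synj1, which codes for the lipid phosphatase synaptojanin 1 that helps to strip the clathrin coat, had 483, 510, 489 and 426 at P5 and 1314, 1302, 1379 and 1311 at P12. Libraries of 1 age were close together, and Synj1 rose 2.78-fold (log2 fold change 1.48, SE 0.07, adjusted p = 2.2e-08), the smallest adjusted p of all members. The gene lies on chromosome 16 from 90936092 to 91011308. Amph, which codes for amphiphysin, a membrane-bending protein that recruits dynamin, had 170, 212, 185 and 223 at P5 and 55.0, 55.7, 36.1 and 65.3 at P12. All P12 libraries were far below the P5 libraries, and Amph was 3.73-fold lower (log2 fold change -1.90, SE 0.18, adjusted p = 5.9e-06). Amphiphysin is best known from nerve terminals. Of the neuron and Schwann cell markers, 2 of 6 fell (Syt1 and Tubb3), 3 rose, and Snap25 did not pass, with a summed normalized count of 2359 to 3133 at P5 and 1804 to 2015 at P12 and no marker at 0. Their part in the level of Amph was not tested.

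The other genes of this group fell or did not pass. Bin1, the second amphiphysin gene, fell from 706 ± 49.9 to 501 ± 50.1 (log2 fold change -0.50, adjusted p = 5.1e-04). With scaling by library total Bin1 differed by -0.12 and did not pass. Skeletal muscle markers, set beside it because Bin1 is also a muscle gene, fell in 5 of 5 tested, from summed counts of 654 to 1181 at P5 to 296 to 410 at P12, and the untested sixth, Myh3, was at 0 in 3 P12 libraries. Their part in the level of Bin1 was not tested. Dnm2, the dynamin expressed in most tissues, had 2760, 2736, 2991 and 3187 at P5 and 2145, 2018, 2096 and 2244 at P12. It fell by 0.46 on the log2 scale without overlap (SE 0.07, adjusted p = 1.5e-04), and by 0.09 with scaling by library total (adjusted p = 0.27). Dnm1, best known as the neuronal dynamin, had 1601, 1776, 1664 and 2071 at P5 and 2219, 1741, 2039 and 1872 at P12. These values overlapped (log2 fold change 0.15, 95% interval -0.04 to 0.33, adjusted p = 0.22); without both P5 replicate 5 and P12 replicate 4 the change was 0.25 with an adjusted p of 0.019. Sh3gl1, an endophilin, fell from 1857 ± 43.2 to 1465 ± 106 (log2 fold change -0.34, adjusted p = 7.1e-04; 0.03 by library total).

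The genes of the early endosome and retromer either rose by less than 0.5 on the log2 scale or did not pass. Eea1, a tether that brings early endosomes together, rose from 674 ± 49.2 to 903 ± 23.7 (log2 fold change 0.42, adjusted p = 2.7e-04). Snx1 rose from 910 ± 32.1 to 1157 ± 75.0 (0.35, adjusted p = 7.8e-04). Vps35, the core of the retromer, had 2176, 2341, 2219 and 2073 at P5 and 2245, 2465, 2536 and 2903 at P12. Values of both ages overlapped, and the call at a log2 fold change of 0.20 (adjusted p = 0.048) was lost when any 1 library other than P12 replicate 1 was left out (adjusted p 0.058 to 0.124). Snx2 had 2876, 2621, 2532 and 2174 at P5 and 2576, 2762, 2862 and 3498 at P12, again with overlap (log2 fold change 0.20, adjusted p = 0.14). Stam, a sorting factor for ubiquitinated cargo, had -0.17 (adjusted p = 0.12). Its partner Hgs had raw counts of at most 4 under 1 identifier and 0 in all libraries under the other. The 2 records share 97.2% and 99.6% of their exonic bases, so the level of Hgs cannot be read from this table.

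Related genes can be compared within a library, since the ratio of 2 genes does not depend on how the library was scaled. Of 10 pairs, 9 could be measured; Lrp2 was too low for a ratio to Lrp1 to be read, and that pair entered only the adjustment over 10 pairs. For 7 pairs the ratios of the ages did not overlap, each with p = 0.0286 in a two-sided exact permutation test, the smallest value that 4 against 4 libraries can give, and 0.0409 after Benjamini-Hochberg adjustment. How often pairs of any other genes separate the ages was not counted, so the number is not read as particular to these pairs. Of all single genes tested, 26.0% had every P12 library above every P5 library, and 26.6% had every one below. The largest shift was between the intersectins. The log2 ratio of Itsn2 to Itsn1 was 0.30, 0.27, 0.31 and 0.12 in the P5 libraries and 1.50, 1.69, 1.92 and 2.16 in those of P12, a difference of 1.57. Per kilobase, Itsn2 made up 67.2% ± 1.40 (SD, n = 4) of the intersectin transcript at P5 and 85.8% ± 2.39 at P12.

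The second largest shift was between the amphiphysin genes. The log2 ratio of Bin1 to Amph was 1.94, 1.71, 1.92 and 1.79 at P5 and 3.28, 3.18, 3.82 and 2.69 at P12, and Amph went from 13.1% ± 0.86 to 5.50% ± 1.65 of the pair per kilobase. The deposited length of Bin1, 2451 bases, is shorter than its annotated exons, 4117 bases in GENCODE M21. On the longer length the share of Amph would be larger at both ages. The dynamins came nearer to each other: the log2 ratio of Dnm2 to Dnm1 was 0.79, 0.62, 0.85 and 0.62 at P5 and -0.05, 0.21, 0.04 and 0.26 at P12, and Dnm1 went from 38.2% ± 1.87 to 48.4% ± 2.51 of their sum. The share of Clta among the light chains went from 80.5% ± 0.74 to 85.8% ± 1.57, with a difference of 0.56 in the log2 ratio. The ratio of Ap1b1 to Ap2b1, the large beta subunits of AP-1 and AP-2, rose by 0.49, from -0.56 ± 0.08 to -0.07 ± 0.06. The ratio of Ap2a2 to Ap2a1 rose by 0.46, from 0.77 ± 0.17 to 1.23 ± 0.28, but by 0.25 without P5 replicate 5 and P12 replicate 4, which held the lowest P5 and the highest P12 ratio. The ratio of Epn2 to Epn1 rose by 0.24, from -2.31 ± 0.11 to -2.07 ± 0.14. The ages overlapped for Ap1m2 to Ap1m1 (difference 0.26, exact permutation p = 0.0857, adjusted p = 0.0952) and for Snx2 to Snx1 (-0.15, exact permutation p = 0.314, adjusted p = 0.314). Without P12 replicate 1 the ratios of Ap1m2 to Ap1m1 no longer overlapped (difference 0.33), and without P12 replicate 4, or without it and P5 replicate 5 (difference -0.31), neither did those of Snx2 to Snx1.

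**Figure D4:**
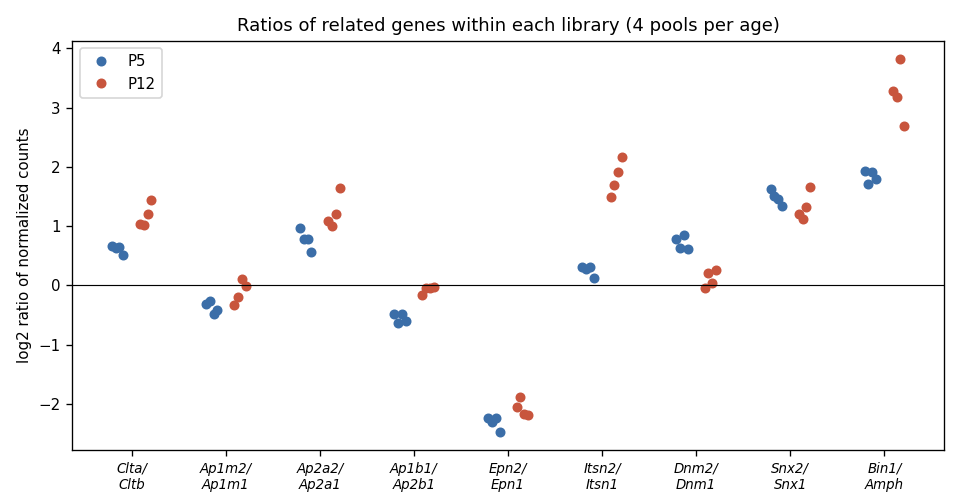
Log2 ratio of the normalized counts of 2 related members in each library (blue P5, red P12, 4 pools each), for the 9 pairs that could be measured; 0 means equal counts. The ages are separate for 7 pairs, most widely for Itsn2 to Itsn1 and Bin1 to Amph, and overlap for Ap1m2 to Ap1m1 and Snx2 to Snx1.

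Around the members, 123 other genes of adaptors, coated pits, scission, receptors, endosomal sorting and caveolae were read from lists, and 122 were tested. Of these 38 rose (31.1%) and 40 fell (32.8%), with a median log2 fold change of 0.015, beside 28.8% and 28.4% of all genes and their median of 0.008. Rises of at least 1 on the log2 scale numbered 13 (10.7%, against 11.3% of all genes) and falls 11 (9.0%, against 10.2%). By list, 14 of 27 other coated-pit factors fell and 7 rose, 10 of 23 other receptors rose and 5 fell, 7 of 11 caveolar and flotillin genes rose and 3 fell, 6 of 29 endosomal sorting factors rose and 8 fell, 5 of 17 scission and uncoating factors rose and 5 fell, and 3 of 15 adaptor paralogs rose and 5 fell. A difference between these lists was not tested.

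The falls were led by Numb, an endocytic adaptor that is also a regulator of Notch signalling. Numb went from 22455 ± 901 at P5 to 1581 ± 174 at P12, 14.2-fold lower (log2 fold change -3.83, SE 0.10, adjusted p = 3.2e-10). Gga2, a Golgi adaptor for mannose 6-phosphate receptors, fell by 1.39 on the log2 scale, from 5612 ± 217 to 2148 ± 167 (adjusted p = 4.1e-08). The cargo adaptor Ston2 fell by 1.17, from 6845 ± 478 to 3039 ± 220, and Arrb1, a beta-arrestin that takes signalling receptors into pits, fell by 1.17, from 3519 ± 386 to 1566 ± 133. Ap1g2, the second gamma subunit of AP-1, fell by 1.11, from 930 ± 259 to 432 ± 40.5, with a high P5 value of 1305 in replicate 5.

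The rises were led by Cav2, a caveolin, which is a coat protein of caveolae and not of clathrin pits. Cav2 went from 159 ± 14.9 at P5 to 1125 ± 111 at P12, 7.06-fold higher (log2 fold change 2.82, SE 0.10, adjusted p = 2.9e-09). Endothelial markers, whose cells are rich in caveolae, rose in 5 of 5, from 1.52-fold for Cdh5 to 2.10-fold for Kdr. Their part in the level of Cav2 was not tested. The sorting receptor Sorl1 rose by 1.75, from 693 ± 44.2 to 2332 ± 355. Hip1r, the relative of Hip1 that links pits to actin, rose by 1.61, with 1489, 1406, 1524 and 1453 at P5 and 3279, 4260, 4354 and 6022 at P12. Vps37b, a subunit of the endosomal complex ESCRT-I, rose by 2.51, from 124 ± 13.2 to 711 ± 252. Vps37b and Hip1r are neighbours on opposite strands, 42.5% of the exonic bases of Vps37b are shared with Hip1r, and both were highest in P12 replicate 4. Without knowing the use of strand, reads of the pair cannot be told apart where the genes overlap.

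**Figure D5:**
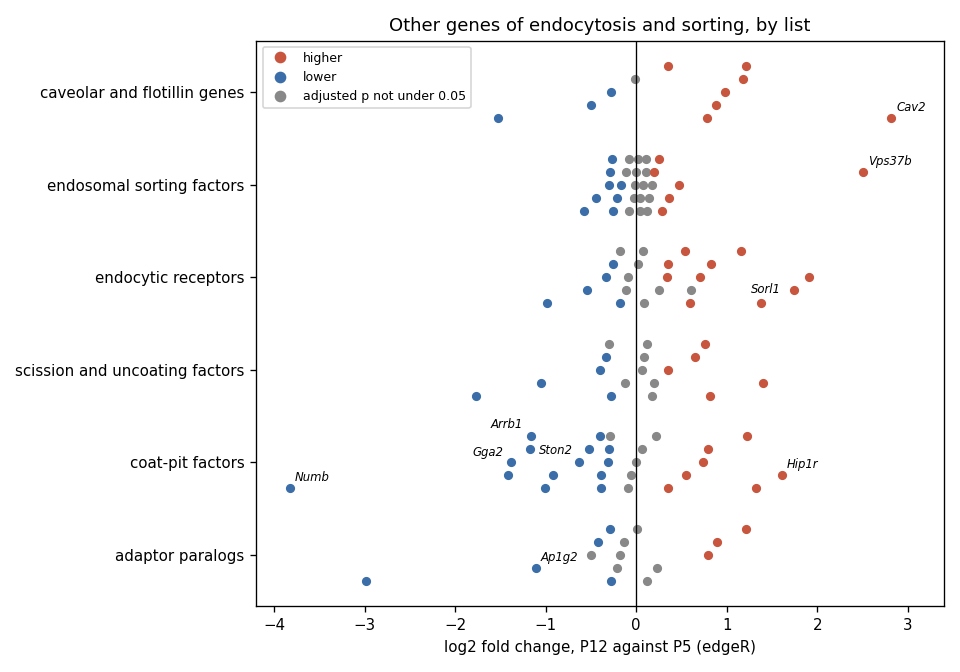
Log2 fold change at P12 against P5 (edgeR) of the 122 tested genes outside the member list, each point 1 gene in the row of its list (red rose, blue fell, grey did not pass). Numb at -3.83 and Cav2 at 2.82 lie farthest out, and 13 rises and 11 falls reach 1.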

How the data were processed

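RNA-seq was performed on first molar enamel organs, with 4 libraries of 5 pooled pups at P5 and at P12. The authors deposited whole-number read counts per gene, not normalized, beside coordinates and lengths in bases (GRCm38: 53548 of 54532 rows match GENCODE M21 exactly). The submitters' processing notes name CASAVA and the build mm39. The aligner, the counter and its use of strand are not given in the sources used here. Columns were assigned to libraries by the titles in the sample labels, which also give the ages and replicate numbers. Nothing says that pools came from separate litters, so p-values measure the spread between pools. Within each age, all pairs of libraries differed by more than counting noise.

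Genes were tested with edgeR 4.0.16 in R 4.3.3, using filterByExpr, TMM factors and the quasi-likelihood test of age alone. P-values were adjusted by Benjamini-Hochberg over 16440 genes, and 0.05 was the threshold. For normalized counts, each count was divided by its library's effective size, then multiplied by the mean size of 19006280. 95% intervals are approximate, as the log2 fold change ± 1.96 SE, and are narrower than the test implies. That of Lrp1 ran from -0.39 to -0.01, beside an unadjusted p of 0.059 in the edgeR test. Ratios of related genes used normalized counts with a pseudocount of 1 and a two-sided exact permutation test. Levels per kilobase used the deposited gene length, which for Snx2 and Bin1 is shorter than their annotated exons. Alternatives were DESeq2 1.42.0, which the study's methods name, limma-voom (limma 3.58.1), DESeq2 size factors, total count, TMM without the 20 most abundant genes, other filters on low counts, each library left out in turn, P5 replicate 5 and P12 replicate 4 left out together, the replicate number as a block, stricter thresholds and a pseudocount of 0.5. The tests were first tried on simulated counts. Other tools were scipy 1.17.1, numpy 2.4.6, pandas 2.3.3 and matplotlib 3.10.9.

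The members, the other gene lists and the markers were chosen with earlier results of these data known. All members are named by role, with values in every library for those that passed with a log2 change of 1 or more in size and for the member of each role with the highest level per kilobase. Values per library of other members were added after the data were examined. Of the other genes, those named are the 5 largest rises and 5 largest falls that passed the test, averaged 100 normalized counts or more and had separate ages; 1 of these is not reported here. The 95% intervals include the spread between libraries, while the floor of 3 counts (0.136 to 0.181 CPM) covers counting error only. Promoter sequences are from RefSeq (36 of 40 members matched).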

Additional observations from a re-analysis of the deposited data

Results flagged for a closer look

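In 6 of the 74 groups of 4 libraries examined (37 members at 2 ages), 1 library lay far from the other 3 by Dixon's test, where chance alone gives about 1 group in 20, or 3.7 here. The lipid phosphatase gene Synj1 had 1379 normalized counts in P12 replicate 3, against 1302 to 1314 in the other P12 libraries, all far above P5. The AP-1 gamma subunit Ap1g1 had 1611 in P5 replicate 3, against 1508 to 1523, and 1646 in P12 replicate 4, against 1373 to 1408.5. The AP-1 small subunit Ap1s1 had 1043 in P12 replicate 3, against 1072 to 1077. Hip1 had 1638 in P12 replicate 2, against 1846 to 1851. The endophilin gene Sh3gl1 had 1623 in P12 replicate 1, against 1397 to 1421. These libraries were not the same one: P12 replicate 3 stood apart for 2 genes, and P5 replicate 3 and P12 replicates 1, 2 and 4 for 1 each.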

How the results depend on the processing

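Under scaling by total count, 22 members rose and 4 fell, against 11 and 12, and 76 and 15 of the other endocytosis genes, against 38 and 40, with all genes shifted by 0.38 on the log2 scale. Under the same scaling, 8885 of all genes tested rose and 2330 fell, against 4735 and 4676. There the log2 fold changes of 13 members had the other sign: Clta 0.051, Ap1m1 0.030, Ap2a1 0.059 and Sh3gl1 0.033 (falls no longer called), Lrp1 0.17, Hip1 0.17 and Stam 0.20 (called under neither scaling), and Cltc 0.25, Ap1g1 0.28, Ap1m2 0.29, Ap3b1 0.28, Cubn 0.34 and Epn2 0.25 (called higher). Requiring a log2 change of 1 or more in size left 2 members higher and 1 lower, and 13 and 11 of the other genes. Of all genes tested, 1865 and 1677 were left. Under DESeq2, DESeq2 size factors, TMM without the 20 most abundant genes, no filter and at least 10 counts in every library, all 37 members kept their direction and side of the threshold, and under limma-voom all but Vps35 (adjusted p = 0.050). The 7 separate pairs stayed separate under all 11 alternatives run for ratios. These could hardly show otherwise, since scaling nearly cancels in a ratio and leaving out libraries cannot make separate ages overlap. Of the 10 members with the highest counts, 8 at P5 and 6 at P12 were also among the 10 highest per kilobase.

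The P5 and P12 libraries share the numbers 1, 3 and 4, but same-numbered libraries did not deviate together (correlations of 0.04, 0.00 and -0.04). With the replicate number as a block over these 6 libraries, 11 members rose and 13 fell, as in the same libraries without the block, and 37 and 32 of the other genes, against 37 and 37. Of all genes tested, 3867 rose and 3843 fell with the block, against 4076 and 4041. Levels near the floor of 3 counts, as for Lrp2, could not be compared at this depth.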
